A study of Mus musculus with 9 samples.

Results

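The interferon regulatory factors (IRFs) are the transcription factors through which RIG-I, an intracellular sensor of viral RNA, and the interferon receptors change gene expression. Their transcripts Irf1, Irf2, Irf3, Irf4, Irf5, Irf7, Irf8 and Irf9 were followed in poly(A) RNA sequencing of CD8+ T cells from mouse spleen, lymphocytes whose task is to kill virus-infected and tumour cells. The 8 genes were chosen by symbol among 18188 listed genes, and all 8 were above the filter on low values that left 10540 genes to test. The series held 4 libraries labelled Rig1 KO, for a knockout of RIG-I, and 5 labelled WT. The titles number the libraries within a genotype and name no animals, so p-values measure only how far these samples spread, and that spread may be technical. The strain, age and sex of the mice, how the knockout was made, whether it was confined to T cells and how the cells were purified are not stated in the labels used here.

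Every IRF carries an N-terminal domain that binds DNA elements built on the letters GAAA, such as the interferon-stimulated response element (ISRE). IRF3 and IRF7 are phosphorylated by TBK1 and IKKε after RIG-I engages its adaptor MAVS, and then switch on type I interferon genes, and IRF5 acts in a similar way downstream of Toll-like receptors. IRF9 joins STAT2 in the complex that answers type I interferon. IRF1 activates interferon-γ and MHC class I genes, and IRF2 competes with it for the same sites. IRF4 is induced by the T cell receptor in proportion to signal strength and sustains the expansion of effector CD8+ T cells, and its relative IRF8 is best known from B cells, dendritic cells and macrophages, where IRF5 is also abundant.

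Irf1 and Irf4 fell in Rig1 KO, while Irf3 rose and Irf9 rose slightly, a call that was lost after median ratio scaling. Irf2, Irf5, Irf7 and Irf8 did not pass the test. Changes were tested with limma on log2(TPM + 1), where TPM divides reads by gene length and sets each library to the same sum, with Benjamini-Hochberg adjustment over all 10540 genes at a threshold of 0.05. Of the 8 members 4 were called, 2 higher and 2 lower. Among all tested genes 45.7% were called, 33.5% higher and 12.2% lower, so the number of called members was close to the background. The groups did not overlap for 3 members (Irf1, Irf3 and Irf4), against 38.1% of all tested genes. Over all tested genes the median change was 0.13 (log2) on the deposited TPM scale and 0.01 when libraries were scaled by median ratios, so changes near 0.13 carry no fixed direction. After median ratio scaling 3 members were called (Irf1, Irf3 and Irf4), against 45.2% of all genes (23.7% higher, 21.5% lower). With the B cell marker covariate 4 were called (Irf1, Irf3, Irf4 and Irf9), against 27.2% (21.5% higher, 5.72% lower). Without WT 4 and WT 5, the libraries with the highest B cell marker levels, 6 were called (also Irf2 and Irf8, both higher), against 45.2% (35.3% higher, 9.83% lower). WT 4 and WT 5 also had the highest WT levels of Irf2, Irf4, Irf5, Irf7, Irf8 and Irf9. Leaving them out therefore moves the change of each of these members upward in advance, and favours a rise of Irf2 and Irf8 in Rig1 KO.

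**Figure D1:**
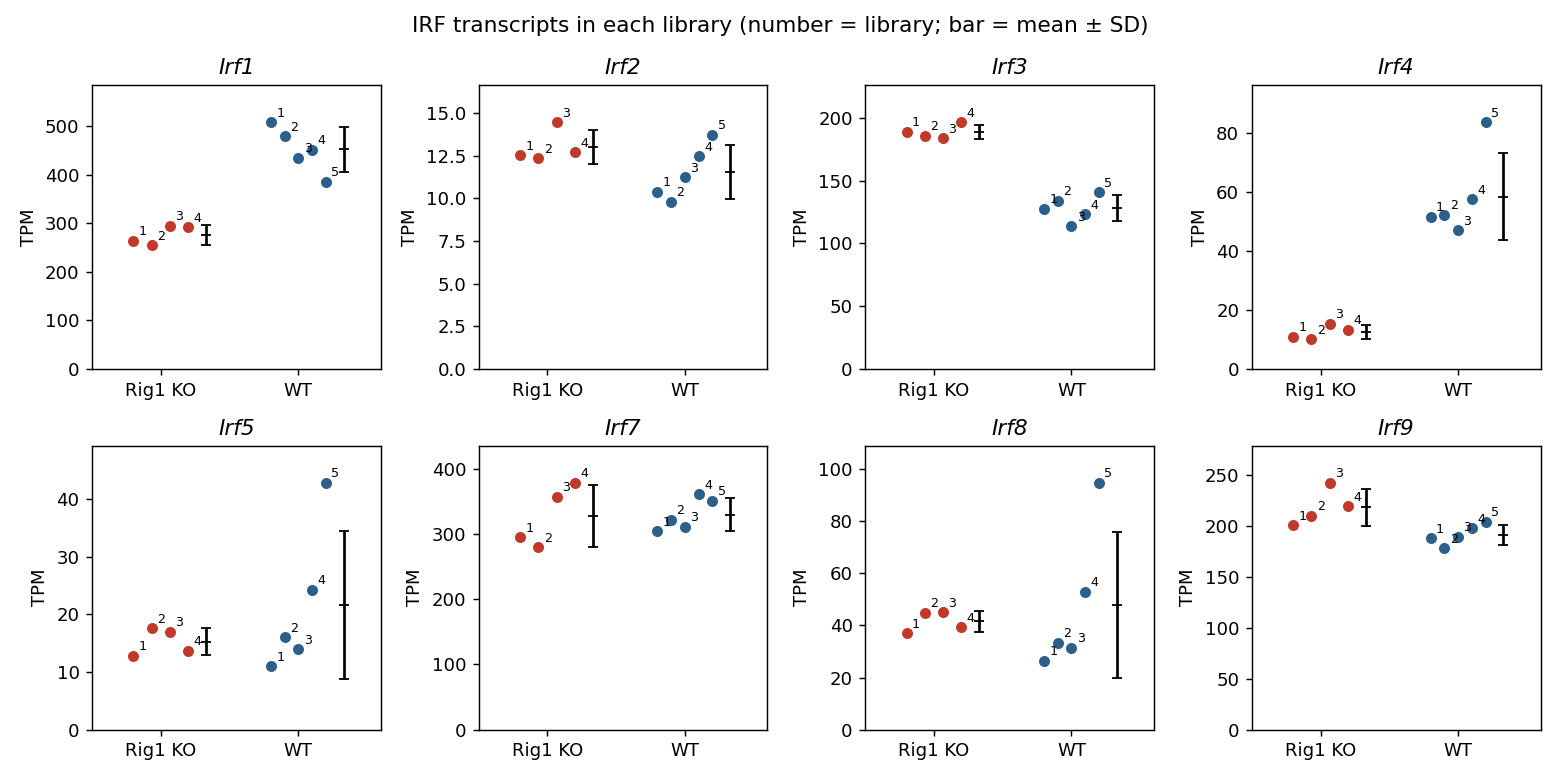
TPM of the 8 IRF transcripts (vertical axes, from 0) in the 4 Rig1 KO and 5 WT libraries, 1 numbered point per library, with the mean ± SD beside each group. Irf1 and Irf4 were lower and Irf3 higher in all Rig1 KO libraries than in all WT libraries. WT 5 stood far above the other libraries for Irf5 and Irf8, and it was also the highest for Irf4.

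The libraries held between 15509876 and 17866952 recovered reads in Rig1 KO and between 15496262 and 17893558 in WT, and between 253 and 6425 of them fell on a member. The transcript of the targeted gene, listed as Ddx58, averaged 33.3 ± 2.04 TPM in Rig1 KO and 65.1 ± 2.0 TPM in WT (SD, n = 4 and 5), without overlap. The Rig1 KO libraries thus kept 51.1% of the WT level, at 1623 to 1893 reads each, and a value for the whole gene does not show which part of it, if any, was deleted. Ddx58 lies on chromosome 4 and no member does: Irf1 lies on chromosome 11, Irf2 and Irf8 on 8, Irf3 and Irf7 on 7, Irf4 on 13, Irf5 on 6 and Irf9 on 14. All 9 measured CD8 T cell markers were present in every library, with summed levels of 8545 to 9204 TPM in Rig1 KO and 6425 to 7513 TPM in WT when scaled on exon lengths. Other cells were present too. The 11 measured B cell markers summed to between 88.7 and 202 TPM in Rig1 KO and between 184 and 1256 TPM in WT, with WT 5 highest, and 8 of the 9 tested fell. The 13 monocyte and macrophage markers summed to between 1737 and 2025 TPM in Rig1 KO and between 847 and 1903 TPM in WT. They were lowest in WT 1 and WT 2. The 9 conventional dendritic cell markers summed to between 86.1 and 109 TPM in Rig1 KO and between 51.4 and 249 TPM in WT. This sum mixes opposite changes, as of 6 tested 1 rose, 1 fell and 4 did not pass. On the deposited scale Itgax rose, at 55.5 TPM in Rig1 KO and 18.8 TPM in WT. H2-DMb2 fell, at 7.68 TPM in Rig1 KO and 54.3 TPM in WT. Natural killer cell markers summed to between 658 and 861 TPM in Rig1 KO and between 177 and 461 TPM in WT, and those of basophils and mast cells to between 136 and 255 TPM in Rig1 KO and between 17.0 and 42.2 TPM in WT. All 5 platelet markers fell, as Irf1 and Irf4 did, with sums of 22.7 to 27.1 TPM in Rig1 KO and 86.1 to 111 TPM in WT. Of 4 tested erythroid markers 3 rose, and the 5 measured summed to between 86.5 and 148 TPM in Rig1 KO and between 34.1 and 90.4 TPM in WT. The part of platelets and red cells in the IRF values was not tested. The 3 measured CD4 T cell markers summed to between 27.6 and 35.1 TPM in Rig1 KO and between 31.6 and 111 TPM in WT. The 5 measured plasmacytoid dendritic cell markers summed to between 45.6 and 55.1 TPM in Rig1 KO and between 63.4 and 173 TPM in WT. Both sums were highest in WT 5, and of 3 tested in each list 1 fell and 2 did not pass. No measured marker of these lists was at 0 in every library. In such bulk samples fewer cells of a type and less RNA per cell cannot be told apart.

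The sequences just before the transcription starts of Irf1, Irf2, Irf4 and Irf8 are shown because Irf1 and Irf4 had the largest falls, and Irf2 and Irf8 are the relatives they are set against here. The 250 bases before the start were taken from RefSeq (GRCm38.p6, an older build than the mm39 of the authors), 5′ to 3′ on the plus strand, with matches in capitals. They are Irf1 at chr11:53769764-53770013, Irf2 at chr8:46739495-46739744, Irf4 at chr13:30748983-30749232 and Irf8 at chr8:120736108-120736357.
Irf1: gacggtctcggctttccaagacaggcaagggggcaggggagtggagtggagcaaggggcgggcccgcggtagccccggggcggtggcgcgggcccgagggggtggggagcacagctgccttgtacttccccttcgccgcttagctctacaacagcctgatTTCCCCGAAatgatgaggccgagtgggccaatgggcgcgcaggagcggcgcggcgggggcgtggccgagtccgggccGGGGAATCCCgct
Irf2: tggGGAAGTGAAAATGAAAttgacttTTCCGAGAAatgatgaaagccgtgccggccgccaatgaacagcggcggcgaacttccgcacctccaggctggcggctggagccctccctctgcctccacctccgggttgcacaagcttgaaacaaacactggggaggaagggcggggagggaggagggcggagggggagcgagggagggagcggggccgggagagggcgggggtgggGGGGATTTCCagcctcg
Irf4: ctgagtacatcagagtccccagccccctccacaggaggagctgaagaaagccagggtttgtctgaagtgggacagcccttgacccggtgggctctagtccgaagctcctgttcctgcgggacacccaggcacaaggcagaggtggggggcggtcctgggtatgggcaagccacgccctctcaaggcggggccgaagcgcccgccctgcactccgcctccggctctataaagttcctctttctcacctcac
Irf8: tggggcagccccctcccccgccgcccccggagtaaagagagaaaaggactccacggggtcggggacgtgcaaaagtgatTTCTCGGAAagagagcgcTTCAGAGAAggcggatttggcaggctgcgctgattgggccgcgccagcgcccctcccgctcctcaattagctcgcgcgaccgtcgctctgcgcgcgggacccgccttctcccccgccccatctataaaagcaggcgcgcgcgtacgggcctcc

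The search used 5 motifs on both strands, namely the IRF element (GAAA repeated after 2 bases of any kind), the STAT-binding GAS element TTCNNNGAA, the AP-1 motif TGANTCA, the ETS-IRF composite (GGAA, then 2 bases of any kind, then GAAA) and the NF-κB consensus. They occur in 2.98%, 7.02%, 6.75%, 2.30% and 3.90% of 32851 RefSeq windows of this length, in that order. The Irf1 window holds a GAS element (TTCCCCGAA, 90 to 82 bases before the start) and an NF-κB motif (GGGGAATCCC, 13 to 4 bases before it). The Irf2 window holds an ETS-IRF composite that overlaps an IRF element, a GAS element and an NF-κB motif (GGGGATTTCC, 17 to 8 bases before the start). The Irf8 window holds a pair of GAS elements, and no listed motif was found in the Irf4 window. All 8 members matched, with 11 windows because Irf1, Irf8 and Irf9 have a further start, and 3 windows held a match. A match describes letters in the window and no binding was measured.

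IRF3, the factor phosphorylated directly downstream of RIG-I and MAVS, had higher transcript levels in Rig1 KO. Irf3 stood at 189, 186, 184 and 197 TPM in Rig1 KO 1 to 4, against 128, 134, 114, 123 and 141 TPM in WT 1 to 5. Each Rig1 KO library lay above each WT library, and the Rig1 KO values were the tightest of all members (coefficient of variation 3.04%, against 8.02% in WT). The means were 189 ± 5.74 TPM in Rig1 KO and 128 ± 10.3 TPM in WT (SD, n = 4 and 5), or 147.5% of the WT mean. The log2 fold change was 0.56 (SE 0.063, limma adjusted p = 5.74e-05), and an exact permutation test over all 126 ways to assign the libraries gave p = 0.00794 (two-sided), the smallest it can give. After median ratio scaling the change was 0.44 (limma adjusted p = 0.00079). Irf3 overlaps Bcl2l12 on the opposite strand in GENCODE M21, and whether reads were counted by strand is not stated in the labels used here. Bcl2l12 averaged 22.4 ± 1.88 TPM in Rig1 KO and 19.2 ± 1.43 TPM in WT and was called higher too, with a log2 fold change of 0.21 (limma adjusted p = 0.0405). The part of its reads in the Irf3 values was not tested. Irf5, Irf7 and Irf9 overlap Tnpo3, Phrf1 and Rnf31 in the same annotation, and none of these 3 neighbours passed the test (log2 fold changes 0.01, -0.06 and 0.12). Irf1, Irf2 and Irf8 overlap predicted genes that are not among the listed genes, so their levels are not known. These include Gm17334 on the opposite strand of Irf1 and Gm20388 on the same strand as Irf8. No overlap was found for Irf4.

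IRF7, the interferon-inducible partner of IRF3, did not pass the test. Irf7 stood at 295, 280, 357 and 379 TPM in Rig1 KO 1 to 4, against 304, 322, 312, 361 and 351 TPM in WT 1 to 5. The groups overlapped, with Rig1 KO 1 and 2 below and Rig1 KO 4 above every WT library. The log2 fold change was -0.02 (95% interval -0.23 to 0.19, limma adjusted p = 0.884). The Irf3 to Irf7 ratio within a library, which hardly depends on library scaling, separated the groups. On the log2 scale it was between -0.96 and -0.59 in Rig1 KO and between -1.54 and -1.25 in WT. The difference was 0.58 (exact permutation p = 0.00794, 0.0119 adjusted over the 3 ratios tested). Irf3 alone differed by 0.56 and also separated the groups, so this ratio is not separate evidence.

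IRF5 acts with IRF7 below Toll-like receptors and was among the least abundant members. Irf5 stood at 12.8, 17.7, 17.0 and 13.7 TPM in Rig1 KO 1 to 4, against 10.99, 16.02, 14.0, 24.3 and 42.9 TPM in WT 1 to 5. All 4 Rig1 KO values lay within the WT range, and the WT coefficient of variation was 59.4%, against 15.7% in Rig1 KO. The log2 fold change was -0.33 (95% interval -1.03 to 0.38, limma adjusted p = 0.425), and it was 0.15 without WT 4 and WT 5 (limma adjusted p = 0.417). WT 4 and WT 5 had the highest Irf5 levels, so leaving them out moves the change upward in advance.

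IRF9 gives the complex with STAT2 its DNA specificity. Irf9 stood at 201, 210, 242 and 219 TPM in Rig1 KO 1 to 4, against 188, 178, 189, 198 and 204 TPM in WT 1 to 5. The groups overlapped only through Rig1 KO 1 and WT 5. Irf9 rose by a log2 fold change of 0.19 (SE 0.064, limma adjusted p = 0.0353), little above the 0.13 of the median gene, and an exact permutation test gave p = 0.0238. The call was lost after median ratio scaling (log2 fold change 0.06, limma adjusted p = 0.252), with no filter (adjusted p = 0.0512), with voom on recovered reads (adjusted p = 0.0686) and without any of Rig1 KO 3, Rig1 KO 4, WT 1, WT 2 or WT 3 (adjusted p from 0.0649 to 0.0953). Stat2 rose as well. It averaged 59.1 ± 6.97 TPM in Rig1 KO and 49.2 ± 4.46 TPM in WT, a log2 fold change of 0.26 (limma adjusted p = 0.0392).

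IRF1, the activator of interferon-γ and MHC class I genes, had lower transcript levels in Rig1 KO. Irf1 stood at 264, 255, 295 and 292 TPM in Rig1 KO 1 to 4, against 509, 480, 435, 452 and 386 TPM in WT 1 to 5. The groups were separated by a wide gap, and WT 5, the library richest in B cell markers, was the lowest of the WT libraries. The means were 276.5 ± 20.3 TPM in Rig1 KO and 452 ± 46.6 TPM in WT (SD, n = 4 and 5). The log2 fold change was -0.70 (SE 0.082, limma adjusted p = 7.35e-05), and Rig1 KO libraries kept 61.1% of the WT mean. It was -0.83 after median ratio scaling, -0.78 without WT 4 and WT 5 and -0.78 with mean B cell marker level as covariate, and the limma adjusted p was at most 0.00401 in these fits. Rig1 KO 3 and WT 3 had B cell marker sums of 202 and 184 TPM, and Irf1 was at 295 TPM in Rig1 KO 3 and 435 TPM in WT 3. These are single libraries that differed in the marker sums of other cells.

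IRF2, the competitor of IRF1, did not pass the test. Irf2 stood at 12.5, 12.4, 14.5 and 12.7 TPM in Rig1 KO 1 to 4, against 10.4, 9.80, 11.2, 12.5 and 13.7 TPM in WT 1 to 5. The groups overlapped, and the log2 fold change was 0.17 (95% interval -0.05 to 0.39, limma adjusted p = 0.179). Without WT 4 and WT 5 it was 0.29 and passed (limma adjusted p = 0.0256). The log2 Irf1 to Irf2 ratio was between 4.26 and 4.42 in Rig1 KO and between 4.72 and 5.49 in WT, a difference of -0.87 (exact permutation p = 0.0159, also after adjustment over the 3 ratios). These ratios use TPM as deposited, so only their difference between groups can be read, not which transcript was more abundant. Irf1, Irf3 and Irf4 each separated the groups alone, so the ratios built on them are not separate evidence.

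The largest change of the family was in IRF4. Irf4 stood at 10.97, 10.2, 15.3 and 13.3 TPM in Rig1 KO 1 to 4, against 51.6, 52.2, 47.0, 57.6 and 83.7 TPM in WT 1 to 5. The highest Rig1 KO library lay far below the lowest WT library, at between 268 and 350 reads per Rig1 KO library and between 1256 and 2077 per WT library. The means were 12.4 ± 2.34 TPM in Rig1 KO and 58.4 ± 14.6 TPM in WT (SD, n = 4 and 5), so Rig1 KO libraries kept 21.3% of the WT mean. The log2 fold change was -2.13 (SE 0.165, limma adjusted p = 3.91e-06, exact permutation p = 0.00794), and 0.664% of the tested genes had a lower one. Of all tested genes 2.74% were called lower with a log2 fold change of -1 or below, and 0.797% with one of -2 or below, as Irf4 was.

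B cells and plasma cells also express Irf4, and B cell markers were lower in Rig1 KO. Adjusted for the mean B cell marker level, the Irf4 change was -1.51 (SE 0.152, limma adjusted p = 0.000162), and without WT 4 and WT 5 it was -1.95 (limma adjusted p = 7.83e-06). Between the libraries with like B cell marker sums, Irf4 was at 15.3 TPM in Rig1 KO 3 and 47.0 TPM in WT 3. These single libraries differed in other marker sums, at 658 and 319 TPM for natural killer cells and 228 and 82.9 TPM for plasma cells. Of the 4 measured plasma cell markers 3 could be tested and 1 rose. This was Jchain, the joining chain of secreted antibodies, at 150.3 ± 19.1 TPM in Rig1 KO and 62.8 ± 25.96 TPM in WT. Sdc1 and Derl3 did not pass (log2 fold changes 0.09 and 0.49), and Tnfrsf17 was below the filter. The summed plasma cell markers, Jchain included, were at 204 to 275 TPM in Rig1 KO and 60.2 to 164 TPM in WT on exon lengths. How much of the Irf4 difference came from B cells, plasma cells, CD4 T cells, plasmacytoid dendritic cells or other cells was not tested.

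IRF8 shares its partner proteins with IRF4 but not its change. Irf8 stood at 37.1, 44.9, 45.1 and 39.4 TPM in Rig1 KO 1 to 4, against 26.5, 33.4, 31.4, 52.9 and 94.7 TPM in WT 1 to 5. The Rig1 KO libraries lay above WT 1 to 3 and below WT 4 and WT 5, and the log2 fold change was -0.04 (95% interval -0.72 to 0.64, limma adjusted p = 0.926). Without WT 4 and WT 5 Irf8 rose by 0.44 (SE 0.102, limma adjusted p = 0.00740), and adjusted for B cell markers the change was 1.01 (limma adjusted p = 0.0536). Only WT 4 and WT 5 lay above Rig1 KO for Irf8, so leaving them out fixed the direction in advance. The B cell marker sums of WT 1 to 5 were 365, 528, 184, 562 and 1256 TPM, so WT 4 was close to WT 2. The conventional dendritic cell marker sums were also highest in WT 4 and WT 5, at 130 and 249 TPM. H2-DMb2 of that list ran in the same order of WT libraries as the B cell marker sums, so the 2 sums are not separate measures. The monocyte and macrophage marker sums of WT 1 to 3 were 847, 1124 and 1746 TPM. The part of macrophages and other cells in the Irf8 values was not tested. The log2 Irf4 to Irf8 ratio was between -2.04 and -1.49 in Rig1 KO and between -0.18 and 0.94 in WT, a difference of -2.09 (exact permutation p = 0.00794, 0.0119 adjusted over the 3 ratios).

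**Figure D2:**
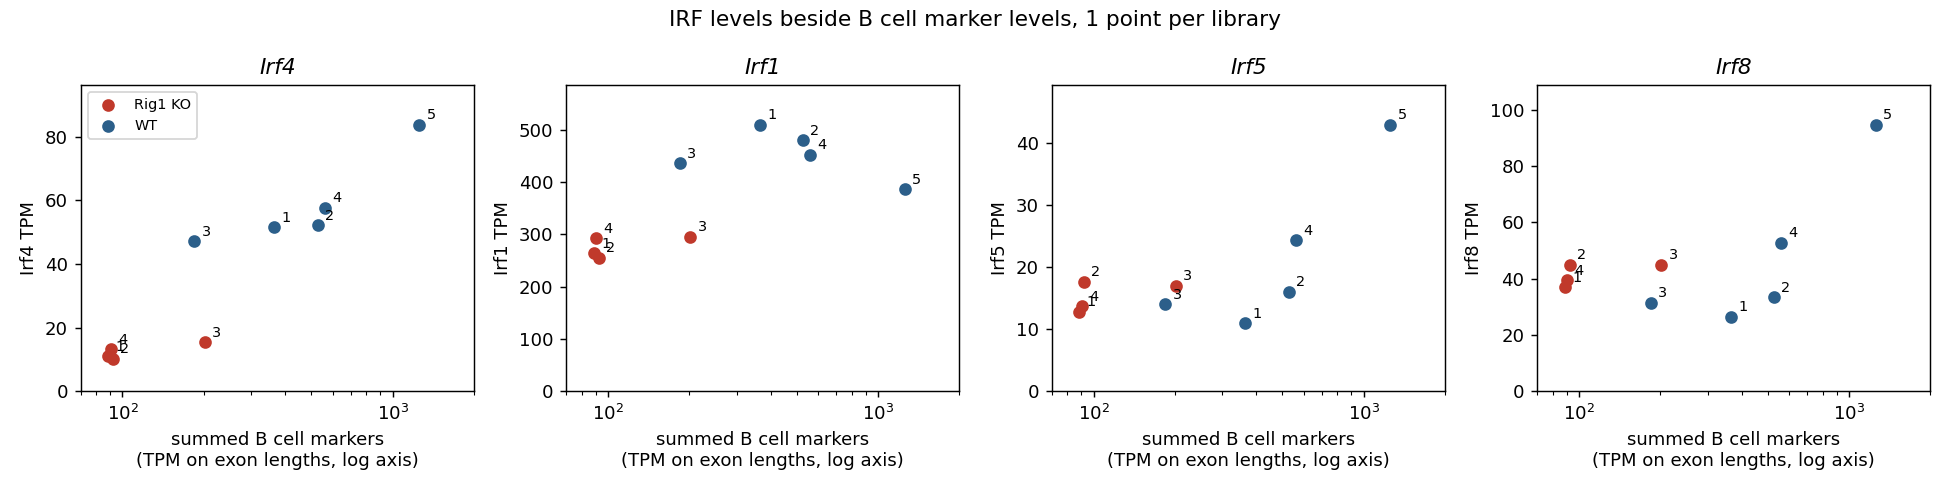
Irf4, Irf1, Irf5 and Irf8 (vertical axes, TPM) against the summed level of 11 B cell markers (horizontal log axis, TPM on exon lengths), 1 numbered point per library, Rig1 KO in red and WT in blue. At the like marker sums of Rig1 KO 3 and WT 3 (202 and 184 TPM) Irf4 and Irf1 were lower in the Rig1 KO library. Irf4, Irf5 and Irf8 were all highest in WT 5, where the marker sum was 1256 TPM.

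**Figure D3:**
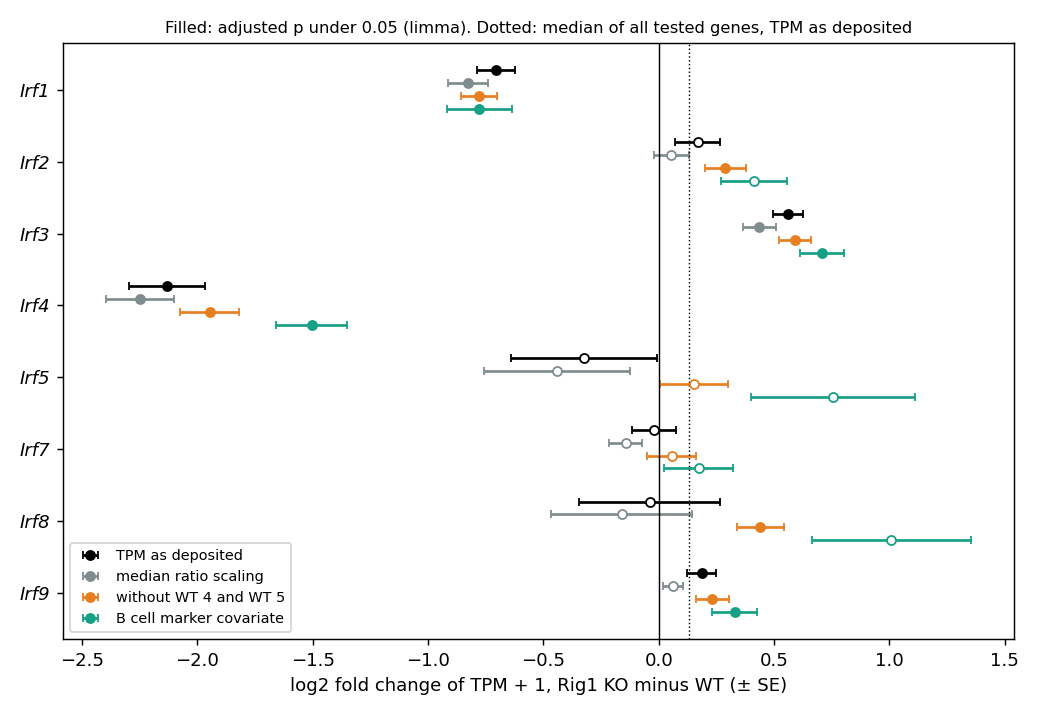
Log2 fold change of each IRF transcript (horizontal axis, Rig1 KO minus WT, ± SE) in 4 fits, filled where the limma adjusted p was under 0.05. Irf1, Irf3 and Irf4 were called in all 4 fits, whereas Irf5, Irf7 and Irf8 lay on either side of 0.

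The deposited TPM were divided by the whole span of a gene, so levels of different IRFs were compared only after the recovered reads were scaled on exon lengths. On this scale Irf1 was the most abundant member in both groups, at 177.5 ± 9.36 TPM in Rig1 KO and 297 ± 32.4 TPM in WT (SD, n = 4 and 5). Next in Rig1 KO came Irf2 (144 ± 8.66 TPM), Irf7 (132 ± 16.8), Irf9 (116 ± 7.70) and Irf3 (115 ± 3.75), each of which overlapped its neighbour in this order. Irf8 (63.2 ± 6.29 TPM), Irf5 (22.6 ± 3.68) and Irf4 (11.9 ± 1.997) came last in Rig1 KO, without overlap between neighbours. In WT the order after Irf1 was Irf7 (136 ± 9.43 TPM), Irf2 (130 ± 16.7), Irf9 (104 ± 4.38), Irf3 (79.6 ± 6.37), Irf8 (73.9 ± 42.7), Irf4 (57.0 ± 13.8) and Irf5 (32.5 ± 19.0). Of these WT neighbours Irf7 and Irf2 overlapped, and so did Irf3 and Irf8, Irf8 and Irf4, and Irf4 and Irf5. Reads from introns may be among those counted, which would raise the level of Irf2, whose span of 107727 bases holds 2497 exon bases.

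The make-up of the IRF pool differed accordingly. Irf1 made up 22.03% to 23.2% of the summed IRF transcripts in Rig1 KO libraries and 24.2% to 38.5% in WT libraries, with WT 5 closest to Rig1 KO. Irf4 made up 1.31% to 1.74% in Rig1 KO and 5.52% to 7.81% in WT. Irf3 made up 13.3% to 15.6% in Rig1 KO and 8.11% to 9.63% in WT. Irf8 made up 7.37% to 9.18% in Rig1 KO and 4.74% to 14.1% in WT. The shares of a library sum to a fixed total, so they are not independent of each other.

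**Figure D4:**
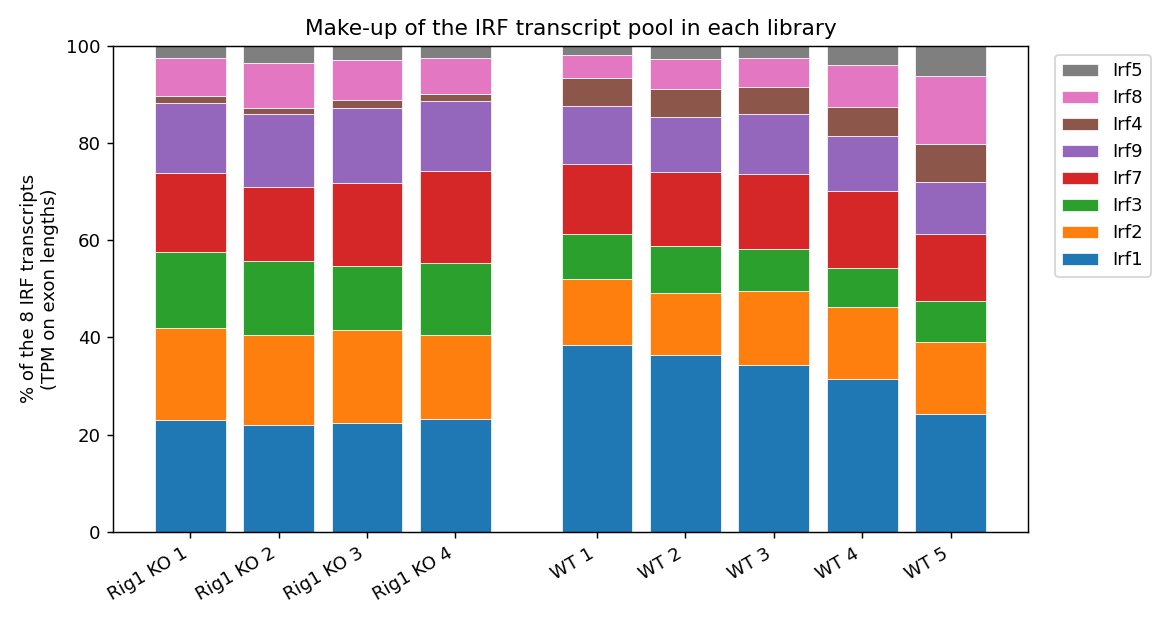
Share of each IRF in the summed IRF transcripts (vertical axis, %, TPM on exon lengths) for every Rig1 KO and WT library. Irf4 (brown) was at 1.31% to 1.74% in Rig1 KO and 5.52% to 7.81% in WT, and WT 5 had the largest shares of Irf4, Irf8 and Irf5.

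The genes whose levels most resembled each member were found by Pearson's r over the 9 libraries, a description in which the difference between the groups takes part. Predicted genes, immunoglobulin and T cell receptor segments and symbols built like clone names were left out beforehand. This also removed C1qa, C1qb and C1qc of the macrophage markers, so none of these could appear. Irf4 was most like Rel, which encodes the NF-κB subunit c-Rel, a known inducer of Irf4 in lymphocytes (r = 0.995), followed by Btg1 and Trp53inp2. Rel itself stood at 37.3, 32.4, 44.7 and 39.8 TPM in Rig1 KO 1 to 4, against 80.7, 78.5, 77.2, 88.1 and 97.2 TPM in WT 1 to 5, a log2 fold change of -1.11 (limma adjusted p = 9.55e-06). Irf1 was most like Bud31, Gnl3 and Epc2 (r of 0.990 to 0.991), Irf3 like Slc25a53, Tmem134 and Dph7 (0.991 to 0.994), Irf2 like Cln8, Rrbp1 and Micall1 (0.964 to 0.966), Irf7 like Pcbp2, Prep and Mtor (0.936 to 0.958) and Irf9 like Padi2 and Hnrnpll (0.981 and 0.971).

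Irf5 and Irf8 varied together within the groups. Irf5 was most like Ly86, Lyn and Unc93b1 (r of 0.982 to 0.991), and Irf8 like Ifi30, Pld4 and Themis2 (0.981 to 0.988). These include genes well known from B cells and myeloid cells, such as the kinase Lyn and the lysosomal reductase Ifi30. Once each library was set against its own group mean, Irf5 and Irf8 correlated at r = 0.992, and both stood within the 3 genes most like the other. Lyn was at 5.19, 6.19, 6.07 and 5.52 TPM in Rig1 KO 1 to 4, against 4.82, 6.01, 5.84, 9.27 and 13.7 TPM in WT 1 to 5, the same order of WT libraries as for Irf8.

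Kinases, adaptors and related signalling genes upstream of the IRFs were examined as a list. Of these 16 genes 10 rose and 0 fell while 6 did not pass, with a median log2 fold change of 0.27. Over all tested genes 33.5% were called higher and 12.2% lower, with a median of 0.13. After median ratio scaling 7 rose and 3 fell, against 23.7% and 21.5% of all genes. Sting1, the adaptor of cytosolic DNA sensing, averaged 186 ± 13.9 TPM in Rig1 KO and 122 ± 9.21 TPM in WT, a log2 fold change of 0.60. Mavs, the adaptor of RIG-I, averaged 28.6 ± 2.07 TPM in Rig1 KO and 18.8 ± 2.29 TPM in WT (0.58), and Cgas, the DNA sensor upstream of Sting1, averaged 20.2 ± 2.23 TPM in Rig1 KO and 12.7 ± 1.43 TPM in WT (0.63). The kinase gene Ikbkb changed by 0.28 (limma adjusted p = 0.00215), and Tbk1, the main IRF3 kinase, by 0.18 (limma adjusted p = 0.0477).

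Of 12 measured IRF corepressors and turnover factors, 5 rose, 2 fell and 5 did not pass, with a median log2 fold change of 0.19. These shares were near the 33.5% and 12.2% of all tested genes called higher and lower. After median ratio scaling 3 rose and 3 fell, against 23.7% and 21.5%. Irf2bp2, a corepressor that binds IRF2, was among those that fell, at 104 ± 10.1 TPM in Rig1 KO and 180.5 ± 14.9 TPM in WT. Sike1, an inhibitor of TBK1 and IKKε, rose by 0.88, and Trim21, a ubiquitin ligase that targets several IRFs, rose by 0.64 (limma adjusted p = 2.00e-06 and 1.60e-05).

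Among the partners with which IRFs bind DNA, 10 genes were tested. Of these 2 rose and 4 fell while 4 did not pass, with a median log2 fold change of -0.08, beside 33.5% of all tested genes higher and 12.2% lower. With median ratio scaling 1 rose and 5 fell (all genes 23.7% and 21.5%), and with the B cell marker covariate 2 rose and 2 fell (all genes 21.5% and 5.72%). Jun and Junb, AP-1 subunits that bind composite sites with IRF4 and BATF, had the largest falls. Junb averaged 624 ± 47.6 TPM in Rig1 KO and 5050 ± 441 TPM in WT, a log2 fold change of -3.01. Batf did not pass, at 16.9 ± 1.61 TPM in Rig1 KO and 15.2 ± 1.26 TPM in WT. Spib, an ETS partner of IRF4 and IRF8 in B cells and plasmacytoid dendritic cells, fell by 2.49 (limma adjusted p = 0.00539), with 6.18 to 25.1 TPM in Rig1 KO and 17.9 to 196 TPM in WT, highest in WT 5.

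A list of NF-κB and antigen receptor genes, which mixes NF-κB subunits with inhibitors and response genes, was mostly lower. Of 17 measured NF-κB and antigen receptor response genes 15 fell, 0 rose and 2 did not pass, and the list had a median log2 fold change of -0.73, against 12.2% of all genes called lower. The counts were the same after median ratio scaling, beside 21.5% of all genes lower. With the B cell marker covariate 9 fell, beside 5.72%. Tnfaip3, the gene of A20, a brake on NF-κB, fell by 3.96, Nfkbia by 1.42, Nfkbiz by 1.66 and the activation marker Cd69 by 2.01. Whether the levels of this list, Rel included, bear on those of Irf1 and Irf4 was not tested.

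No gene fell in either list of IRF targets on the deposited scale. Among 27 measured ISRE genes 16 rose and 0 fell while 11 did not pass, and the median log2 fold change was 0.36. For all tested genes the share called higher was 33.5% and the median 0.13. After median ratio scaling 13 rose and 0 fell, beside 23.7% of all genes called higher. Usp18, which restrains interferon receptor signalling, rose by 1.45, Mx1, an antiviral GTPase, by 1.19, Ifit1 by 0.99 and Ifit3 by 0.72. Ifit genes share sequence, so single values are uncertain. Of 15 tested IRF1-linked interferon-γ and MHC class I genes, among 18 found, 11 rose, 0 fell and 4 did not pass, with a median of 0.41, beside 33.5% of all genes higher and 12.2% lower. With median ratio scaling 9 rose and 2 fell, beside 23.7% and 21.5%. Psmb9, an immunoproteasome subunit, averaged 259 ± 13.03 TPM in Rig1 KO and 160 ± 19.0 TPM in WT, and the peptide transporter gene Tap1 averaged 503 ± 37.2 TPM in Rig1 KO and 362 ± 18.9 TPM in WT. Casp1, the inflammatory caspase, rose by 1.34 and Gbp3, a guanylate-binding protein gene, by 0.59.

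Of 20 measured T cell genes linked to IRF4, 8 rose, 6 fell and 6 did not pass, with a median log2 fold change of 0.15, near the 0.13 of all genes. The share that rose was near the 33.5% of all genes, and 12.2% of all genes fell. Scaled by median ratios, 5 rose and 7 fell (all genes 23.7% and 21.5%), and with the B cell marker covariate 5 rose and 5 fell (all genes 21.5% and 5.72%). The inhibitory receptor gene Ctla4 fell by 3.12, the glucose transporter gene Slc2a1 by 1.48 and the quiescence factor gene Klf2 by 0.97. Eomes, a T-box factor of memory and cytotoxic cells, averaged 299 ± 18.2 TPM in Rig1 KO and 138 ± 14.7 TPM in WT, a log2 fold change of 1.12 (limma adjusted p = 2.75e-06). Natural killer cells also express Eomes, and their marker sum, which includes Eomes itself, was higher in Rig1 KO. The part of natural killer cells in the Eomes values was not tested.

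Of the 7 interferon receptor and Janus kinase genes, 3 rose, 2 fell and 2 did not pass, beside 33.5% of all genes higher and 12.2% lower. With the B cell marker covariate 1 rose and 2 fell, beside 21.5% and 5.72%. Both chains of the interferon-γ receptor fell, Ifngr2 by 0.77 and Ifngr1 by 0.35 (limma adjusted p = 4.00e-05 and 0.000762). Ifnar1, a chain of the type I receptor, averaged 114 ± 13.1 TPM in Rig1 KO and 88.7 ± 3.98 TPM in WT, and the kinase gene Jak1 averaged 158 ± 10.9 TPM in Rig1 KO and 126 ± 3.31 TPM in WT.

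**Figure D5:**
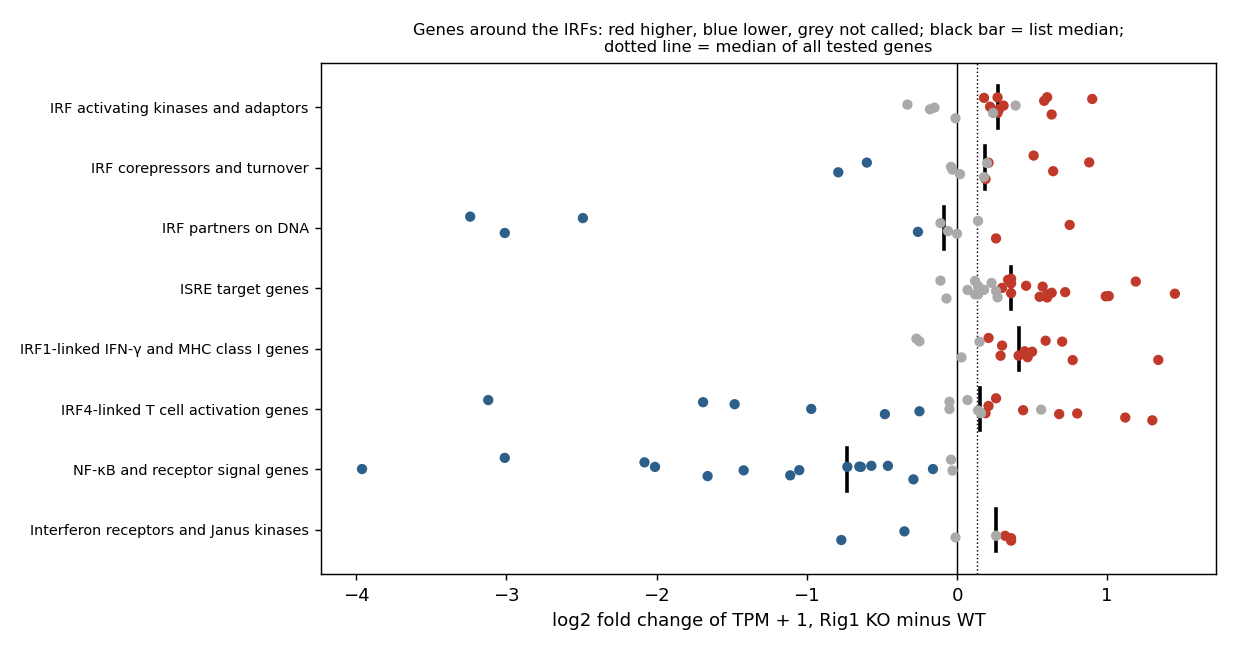
Log2 fold change (horizontal axis, Rig1 KO minus WT) of every tested gene in 8 lists around the IRFs, 1 point per gene, coloured by the limma call, with list medians as black bars. The list of NF-κB and receptor signal genes lay lowest (median -0.73) and the IRF1-linked list highest (median 0.41), beside 0.13 for all genes.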

How the data were processed

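The authors deposited TPM values, 1 column per library as the file headers name them. The tools fastp and featureCounts and the mm39 build are named, without their settings, per the submitters' processing notes. The aligner and annotation are not given in the sources used here. Whole reads were recovered from the ratios of values (100% of genes, relative tolerance 2e-12). The implied gene lengths were within 1% of the whole gene span for 96.6% of 17503 genes, so levels between genes use reads scaled on exon lengths from GENCODE M21 (17754 genes).

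The filter kept genes that reached 1 TPM in 4 or more libraries. R 4.3.3 and limma 3.58.1 then compared log2(TPM + 1) between genotypes (mean-variance trend, all 9 libraries, no covariates, two-sided). The script was tested on simulated data. Ratios and single members were compared by exact permutation. Named were all members, up to 4 genes of each pathway list with the smallest p, and the 3 genes most like each member with a mean TPM of at least 2. Tbk1, Stat2 and Batf fall outside this rule and were named after their values were seen. Some genes that the rule names are not reported here. The members, lists, motifs and choices were taken with earlier results of these data known. The limma test on recovered reads (voom) was chosen after seeing the data. The other alternatives were the pseudocount, the filter, median ratio and quantile scaling, a B cell marker covariate, the replicate number as a block and leaving out libraries.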

Additional observations from a re-analysis of the deposited data

Results flagged for a closer look

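A gap test of the highest and lowest library in each group (4 or 5 libraries, 95% level) covered 16 member and group combinations, and chance gives about 1 in 20. Irf4 in WT 5, at 83.7 TPM, stood above the other WT libraries, with a gap of 0.712 of the range, just past the critical value. WT 5 also had the highest B cell marker sum. Irf2 in Rig1 KO 3, at 14.5 TPM, stood above the other Rig1 KO libraries, with a gap of 0.833 of the range, also just past it.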

How the results depend on the processing

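Irf1, Irf3 and Irf4 kept their direction and call under every other choice tried, including voom on recovered reads. Leave-one-out values lay between -0.76 and -0.66 for Irf1, 0.52 and 0.60 for Irf3 and -2.23 and -1.996 for Irf4. The number of members called higher was 1 with no filter, after median ratio scaling and with voom, 4 without WT 4 and WT 5, and 1 to 2 when each library was left out. With the B cell marker covariate 2867 genes changed (2264 higher and 603 lower). The number of lower genes was 2266 after median ratio scaling, 2195 after quantile normalization and 1944 with voom, against 1291. Of the members that were not called, Irf5, Irf7 and Irf8 changed sign and Irf2 did not. Irf5 was 0.76 with the B cell marker covariate and 0.15 without WT 4 and WT 5. Irf7 was 0.17 and 0.0554 in these fits and 0.0038 with the replicate block, and Irf8 was 1.01, 0.44 and 0.24, in the same order. Leave-one-out values lay between -0.0926 and 0.0532 for Irf7 and between -0.21 and 0.24 for Irf8. WT 4 and WT 5 were the highest WT libraries for Irf5, Irf7 and Irf8, so leaving them out moves these changes upward in advance. The cause of the sign changes was not tested. Same-numbered libraries share only a number (correlations of deviations 0.097, -0.06, -0.1 and -0.072). With the number as a replicate block, which leaves out WT 5, 4755 genes changed, and the ratio differences were -0.99 for Irf1 to Irf2, -2.24 for Irf4 to Irf8 and 0.59 for Irf3 to Irf7, each with adjusted p = 0.125, the smallest that sign flips of 4 pairs give.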
